A study of Oryza sativa with 4 samples.

Results

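The 9 cellulose synthase genes CESA1 to CESA9 of rice were followed in the collar of the flag leaf, the lamina joint where blade meets sheath, in the lc1 mutant and in wild-type plants. Members were the probe sets of the Affymetrix Rice Genome array whose single annotated gene carries one of these names as symbol or synonym. This gave 13 probe sets of 9 genes, out of 57258 probe sets without the AFFX prefix of array controls and 17905 genes with a probe set. For 5 of the genes there was 1 probe set, and for 4 genes (CESA1, CESA2, CESA3 and CESA4) there were 2. Total RNA from 1-cm pieces of the collar was hybridised, with 2 arrays for lc1 and 2 for the wild type, described by the submitters as biological replicates. Neither cultivar, plant age nor the kind of lc1 allele is given in the sources used here, so lc1 is described only by its label. With 2 arrays a genotype, the number of arrays limits the precision throughout.

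Cellulose is made at the plasma membrane by rosette-shaped complexes of several CESA proteins, each of which adds glucose units to a growing glucan chain. Plants use different CESA proteins for the thin primary wall of growing cells and for the thick secondary wall laid down in vessels and fibres once growth has stopped. In rice CESA4, CESA7 and CESA9 are known from brittle culm mutants as the members needed for the secondary wall. CESA1, CESA3 and CESA8 are usually counted with the primary wall, and CESA2, CESA5 and CESA6 are less well described. In the lamina joint, sclerenchyma and vascular tissue with secondary walls lie beside cells whose expansion on the upper side bends the blade away from the stem.

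The deposited values are MAS 5.0 signals on a linear scale, with 1 value for a probe set on each array. They had not been brought to one level, with median signals of 11.8 and 12.1 on the wild-type arrays against 16.1 and 13.0 on those of lc1. Each array was therefore scaled on the log2 scale to its own median, and all differences below are log2 signal in lc1 minus wild type after that scaling, with the standard error (SE) of limma over 2 arrays per genotype. Signals themselves are given as deposited. Background was read from 23 control probe sets without a rice target, whose 95th percentile on each array is called its floor and lay between 9.02 and 13.8. The Gapdh control gave 5' to 3' signal ratios, which drop as RNA degrades, of 0.164 and 0.236 for the wild type and 0.246 and 0.138 for lc1. As a check of the labels, GH3.1, known from the literature as LC1, read 1.0 and 9.0 on the wild-type arrays, both under the floor, and 551.8 and 418.1 on the lc1 arrays. It was at least 38.4-fold higher in lc1, with a limma adjusted p of 0.0557 that does not pass. LG1, without which rice forms no ligule and no lamina joint, was above the floor on all 4 arrays, at 132.1 and 240.4 for the wild type and 131.7 and 135.8 for lc1. After scaling both lc1 arrays of LG1 were below both wild-type arrays, whereas the genotypes overlapped as deposited, at -0.69 ± 0.34 (limma adjusted p = 0.644), the same direction as the secondary-wall CESA genes below, and its part in their values was not tested. BU1, a factor that promotes lamina bending, was above it on all 4 as well, and ILI6 was under it on all 4.

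The 3 secondary-wall members were lower in lc1, as was CESA2 near background. On their brighter or only probe sets the remaining members lay from -0.35 for CESA8 to 0.61 for CESA5. CESA4, CESA7 and CESA9 measured 2.18-fold, 2.40-fold and 2.38-fold lower on the brighter or only probe set of each gene, a median log2 difference of -1.25. Against lc1 mutant 1 alone they lay from -0.65 to -1.02, and against lc1 mutant 2 alone from -1.35 to -1.85. Over the other 6 genes the median was 0.04, from -1.17 for CESA2 to 0.61 for CESA5, and over all 34355 tested probe sets it was -0.05. No CESA probe set passed the test across the whole table, so these are measured differences on 2 arrays against 2 and not calls. Of 11 tested CESA probe sets 0 passed limma at an adjusted p of 0.05, and 5 had an unadjusted p under 0.05, all of them lower in lc1. Of all tested probe sets 0.0262% passed in either direction, and 4.77% were lower with an unadjusted p under 0.05. Of the 11 probe sets 7 lay below 0, against 55.0% of all tested. Less RNA per cell and fewer cells of a kind cannot be told apart in RNA of the whole collar.

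**Figure D1:**
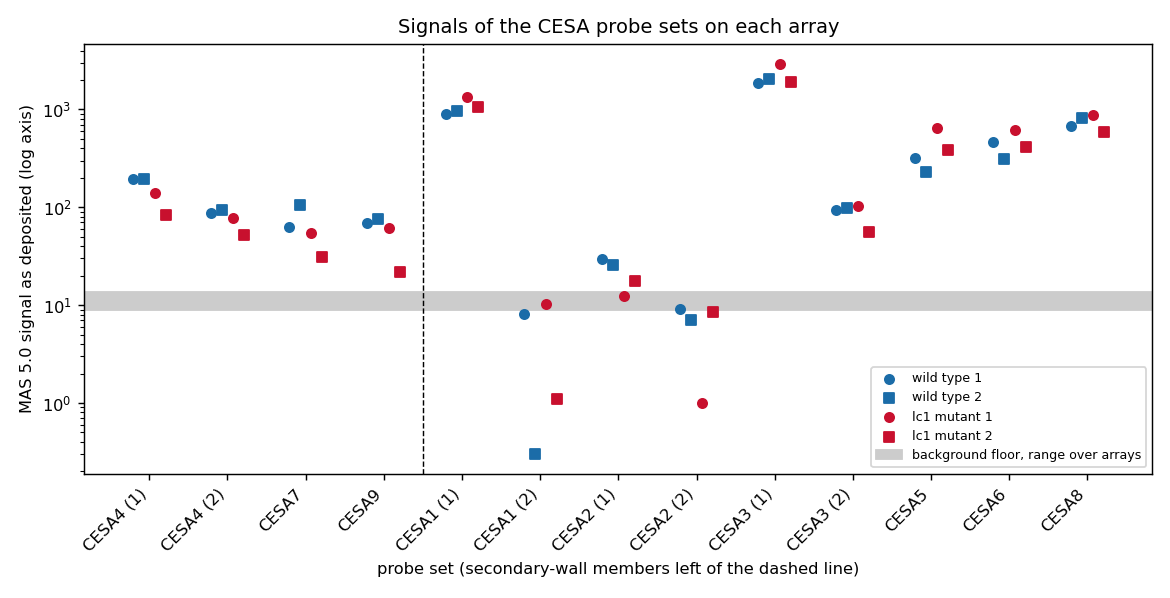
MAS 5.0 signal as deposited (log axis) of each CESA probe set on the 2 wild-type (blue) and 2 lc1 (red) arrays; where a gene has 2 probe sets, (1) is the one with the higher mean signal. The 4 secondary-wall probe sets left of the dashed line have both red points below both blue points, and CESA1 (2) and CESA2 (2) lie around or under the grey band, which spans the background floors of the arrays.

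CESA4, a catalytic subunit of the secondary-wall complex, was measured by a pair of probe sets designed from the same cDNA. On the brighter one the signals were 193.3 and 195.7 for the wild type and 141.1 and 82.8 for lc1. The wild-type arrays were close together, and both lc1 arrays lay below them, lc1 mutant 2 more so. The log2 difference was -1.12 ± 0.29, with a 95% interval from -1.78 to -0.46 and a limma adjusted p of 0.359. On the second CESA4 probe set the signals were 86.9 and 93.9 against 78.3 and 51.8, again without overlap. Its difference was smaller, at -0.78 ± 0.30 (limma adjusted p = 0.566).

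CESA7, the second subunit of that complex, read 63.6 and 104.8 on the wild-type arrays against 54.2 and 31.2 on those of lc1. Both lc1 arrays were below both wild-type arrays, although the wild-type arrays were themselves 0.68 log2 units apart after scaling. The log2 difference was -1.27 ± 0.37, with an interval from -2.10 to -0.43 and a limma adjusted p of 0.411.

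CESA9, the third subunit, read 68.9 and 76.0 on the wild-type arrays against 62.0 and 21.8 on those of lc1. The genotypes did not overlap, but lc1 mutant 1 lay close to the wild type as deposited while lc1 mutant 2 was far below. After scaling, lc1 mutant 1 lay -0.65 log2 units from the wild-type mean and lc1 mutant 2 lay -1.85. The log2 difference was -1.25 ± 0.43, with an interval from -2.23 to -0.28 and a limma adjusted p of 0.517. Without lc1 mutant 1 it was -1.85 and without lc1 mutant 2 it was -0.65, each in a fit with a single lc1 array.

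All 4 secondary-wall probe sets thus had both lc1 arrays below both wild-type arrays after scaling, as had 23.2% of all tested probe sets. Of these 4, 3 were also at least 2-fold lower, as were 3.89% of all tested probe sets. Lower lc1 arrays were not particular to this class. Of the 7 tested probe sets of the other CESA genes, 3 had both lc1 arrays below both wild-type arrays and 2 had both above. Of the 3 secondary-wall genes, each was below its wild-type mean on both lc1 arrays. The mean of the 3 on lc1 mutant 1 was -0.86, and -1.57 on lc1 mutant 2, so the size rests more on lc1 mutant 2. That array had the lowest Gapdh 5' to 3' ratio of the 4 and lc1 mutant 1 the highest, and the part of RNA quality in the result was not tested.

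**Figure D2:**
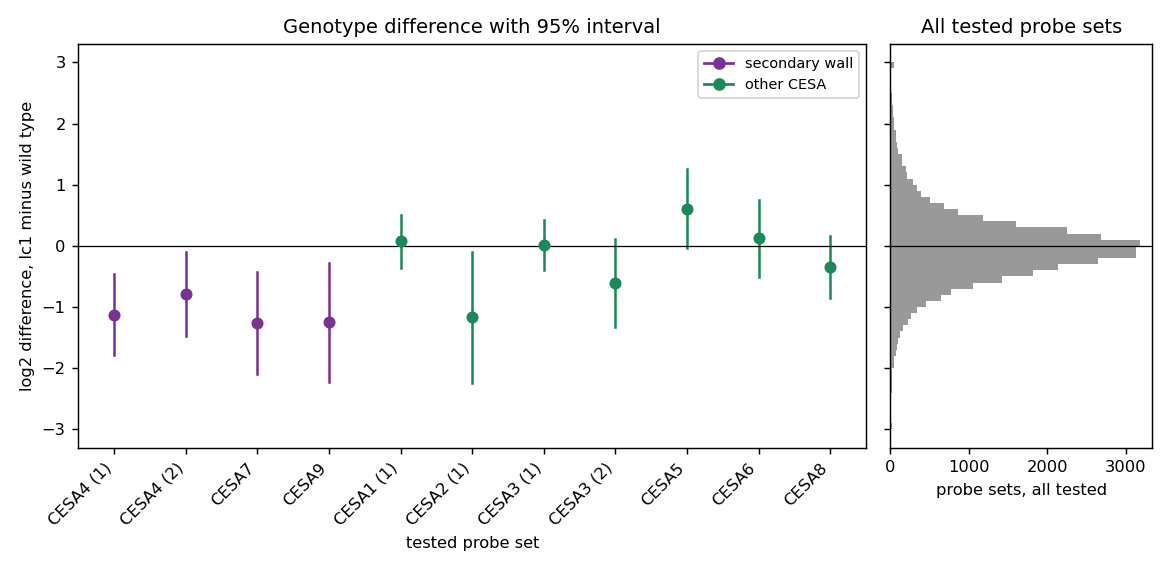
Left, log2 difference (lc1 minus wild type) of each tested CESA probe set with its 95% interval from limma, for the secondary-wall members (purple) and the others (green); right, how the differences of all 34355 tested probe sets are spread, with values beyond 3 in the outermost bars. The intervals are not adjusted for the number of tests. The 4 purple intervals lie below 0, as does that of CESA2 (1), and the other green intervals include 0.

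Among the members counted with the primary wall, CESA1 read 890.7 and 968.0 on the wild-type arrays against 1337.4 and 1047.5 on those of lc1. After scaling both lc1 arrays were just above both wild-type arrays, all within 0.10 log2 units of the wild-type mean. CESA1 gave a log2 difference of 0.07 ± 0.19 with an interval from -0.36 to 0.51. The second CESA1 probe set was under the floor on all 4 arrays, so no fold is given.

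CESA3 was measured by 2 probe sets with different values, and the difference between them was not tested. The brighter one read 1874.7 and 2029.0 on the wild-type arrays against 2945.7 and 1918.3 on those of lc1, which overlapped. Its log2 difference was 0.01 ± 0.18 (interval from -0.40 to 0.42). The dimmer one had 94.2 and 97.9 against 102.6 and 56.5. After scaling its lc1 arrays were below its wild-type arrays, at -0.61 ± 0.32 (interval from -1.33 to 0.11). As deposited its genotypes overlapped, so its separation rests on the scaling.

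CESA8 read 681.9 and 823.7 on the wild-type arrays against 872.8 and 582.7 on those of lc1. After scaling both lc1 arrays were below both wild-type arrays, whereas as deposited they overlapped. The log2 difference was -0.35 ± 0.22, with an interval from -0.85 to 0.16.

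CESA5, unlike the secondary-wall members, lay above its wild-type level. It read 316.5 and 229.7 on the wild-type arrays against 640.6 and 386.9 on those of lc1, and both lc1 arrays stood higher than both wild-type arrays, as in 16.4% of all tested probe sets. The log2 difference was 0.61 ± 0.28 (1.53-fold higher), with an interval from -0.03 to 1.25 and a limma adjusted p of 0.630. It fell to 0.36 when wild type 2 was left out and to 0.40 when lc1 mutant 1 was. CESA6 had 468.8 and 315.1 against 614.5 and 416.5. Its genotypes overlapped, and the difference was 0.12 ± 0.28 with an interval from -0.51 to 0.75.

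CESA2 was near background. Its brighter probe set read 29.4 and 25.5 on the wild-type arrays against 12.3 and 17.7 on those of lc1, of which the first lc1 value was under the floor of its array. The log2 difference was -1.17 ± 0.47 (interval from -2.24 to -0.10, limma adjusted p = 0.580), and it came to -0.75 on lc1 mutant 2 alone and to -1.58 on lc1 mutant 1 alone. The second CESA2 probe set was under the floor on 3 of 4 arrays and was below the filter on dim probe sets.

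To compare the 2 classes of CESA without any scaling between arrays, the log2 ratio of each secondary-wall gene to each other CESA gene was taken within each array, using the brighter probe set of a gene. Against CESA1, CESA3, CESA5, CESA6 and CESA8, all 15 ratios were lower on both lc1 arrays than on both wild-type arrays. The same held for 25.4% of the pairs formed by any tested probe set with these 5. The 15 ratios share their 3 secondary-wall genes and these 5 others, so they are not independent and their number is not evidence by itself. The ratios differed between genotypes by -0.78 to -1.87, with a median of -1.27. The smallest difference was that of CESA4 to CESA8 and the largest that of CESA7 to CESA5. Of the 3 ratios to the dim CESA2, 0 separated the genotypes, and their differences lay from -0.10 to 0.04.

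Per array, the mean of the secondary-wall genes minus the mean of the other 6, each relative to its wild-type mean, came to -0.21 and 0.21 on the wild-type arrays against -0.78 and -1.42 on those of lc1. Without CESA2 it was -0.20 and 0.20 against -1.08 and -1.54. Both lc1 arrays lay below both wild-type arrays in either case. The difference of -1.10 between genotypes exceeded the spread between arrays of a genotype (SD 0.38), and no p is given for a score over chosen members. On the brighter probe sets and leaving out CESA2, a choice made after its values were seen, each secondary-wall gene had a lower difference than each other CESA gene. This order held with quantile normalization and with log2(signal + 16). It also held with each of the 4 arrays left out, but that outcome was fixed. Every ratio without CESA2 above already had both lc1 arrays below both wild-type arrays.

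**Figure D3:**
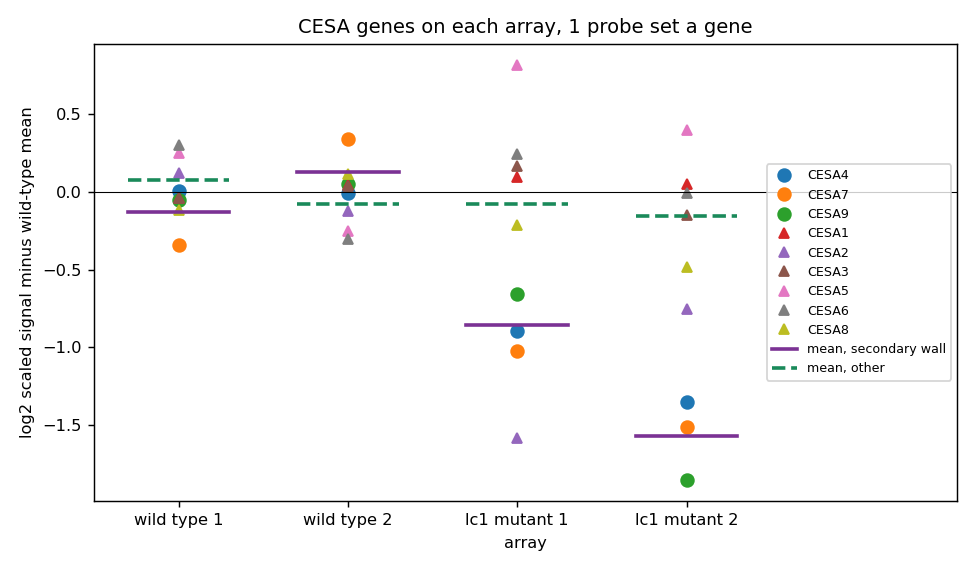
Log2 scaled signal of each CESA gene on each array minus its wild-type mean, 1 probe set a gene (circles, secondary-wall members; triangles, others), with the class means as lines. On both lc1 arrays the circles lie below every triangle except CESA2 on lc1 mutant 1, and the class means are -0.86 and -0.08 on lc1 mutant 1 and -1.57 and -0.16 on lc1 mutant 2.

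Genes that act with the cellulose synthases were read from lists of names. Of the genes for cellulose assembly and substrate supply, 10 were tested and 0 passed limma in either direction. At an unadjusted p under 0.05, 1 was higher, as were 3.39% of all tested probe sets. The median of the 10 genes was 0.00, with 5 below and 5 above 0. SUS1, a sucrose synthase that supplies UDP-glucose, read 290.6 and 429.6 on the wild-type arrays against 923.1 and 576.0 on those of lc1, a difference of 0.77 ± 0.27 (limma adjusted p = 0.529). Another sucrose synthase, SUS2, gave -0.17 ± 0.16, with its lc1 arrays below its wild-type arrays after scaling and overlapping as deposited. GLU1, an endoglucanase of the KORRIGAN type, gave -0.04 ± 0.23, and its lc1 arrays were below its wild-type arrays after scaling but above them as deposited. BC1, a COBRA-like protein needed for secondary-wall cellulose and named here after its values were seen, had 50.9 and 72.4 against 78.5 and 34.8. Its genotypes overlapped, at -0.49 ± 0.39. Of its relatives, added after their values were seen, BC1L6 and BC1L9 lay on the other side of 0, at 0.70 ± 0.44 and 0.13 ± 0.30. BC1L2, under the floor on 3 arrays, lay on the same side as BC1, at -0.42 ± 0.71. The genotypes overlapped in all of these relatives.

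The signals of listed genes for lignin and xylan, polymers laid down beside cellulose in secondary walls, did not share one direction. Of 20 tested genes for lignin synthesis 0 passed limma, 13 lay above and 7 below 0, and the median was 0.23. These include genes near background, whose brighter genotype was not above the floor on both arrays. Such genes were LAC19, LAC20 and LAC23 above 0 and CCR1 and LAC4 below 0. That median rests on single arrays, since it came to -0.04 on lc1 mutant 2 alone and to 0.54 on lc1 mutant 1 alone. At an unadjusted p under 0.05 there were 2 higher and 2 lower. Of all tested probe sets 3.39% were higher and 4.77% lower at that level. The lower ones were both laccases, of a family that joins lignin units in the wall. LAC10 read 118.3 and 71.4 on the wild-type arrays against 17.2 and 45.2 on those of lc1, which is 3.99-fold lower after scaling, with a log2 SE of 0.55 (limma adjusted p = 0.375). LAC7 had 242.9 and 477.6 against 223.3 and 156.2, at -1.14 ± 0.34 (limma adjusted p = 0.426). Both had their lc1 arrays below their wild-type arrays.

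Higher in lc1 was CAD6, a member of the cinnamyl alcohol dehydrogenase family, which makes lignin alcohols, at 98.0 and 122.8 on the wild-type arrays against 430.6 and 199.0 on those of lc1 (1.14 ± 0.33). LAC24, another laccase, had 17.6 and 12.1 against 561.5 and 24.6, a difference of 2.73 ± 1.07 to which lc1 mutant 1 gave 4.84 and lc1 mutant 2 0.63 over the wild-type mean. 4CL4, of the ligases that activate lignin precursors, gave 0.22 ± 0.21 with its lc1 arrays above its wild-type arrays.

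For xylan, the main hemicellulose of grass secondary walls, 8 genes were tested and 0 passed limma, with 0 at an unadjusted p under 0.05. The genotypes overlapped in all 8, and the differences lay from -0.28 to 0.17 with a median of -0.09. IRX9 and IRX14, both of the family that builds the xylan backbone, gave -0.28 ± 0.32 and -0.19 ± 0.24, with these 2 named after their values were seen. None of the 23 names written for regulators of the secondary wall was found in the gene table, so those genes were not analysed here.

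**Figure D4:**
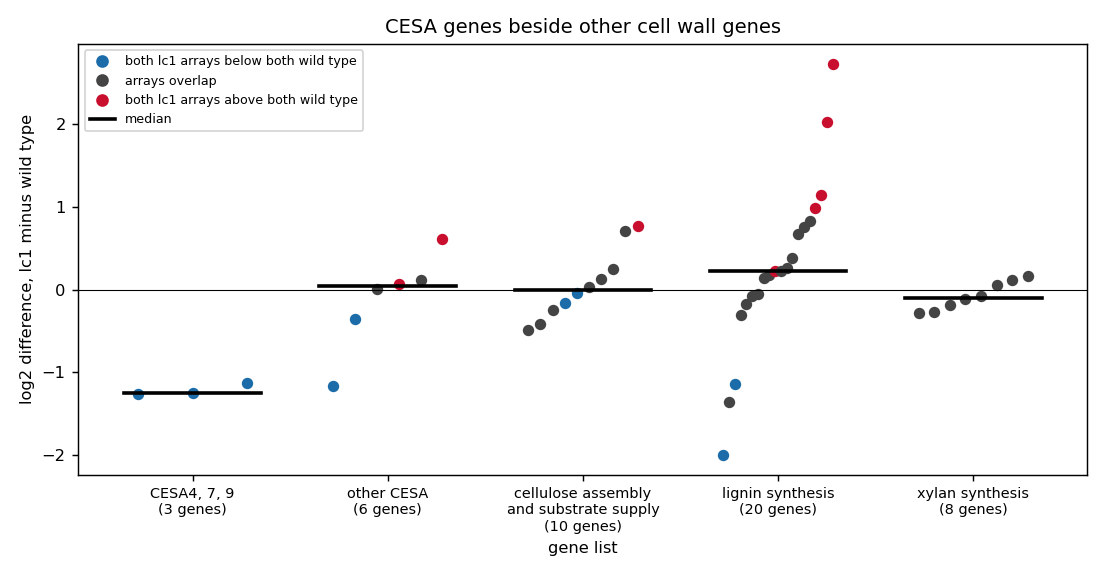
Log2 difference (lc1 minus wild type) of each tested gene, 1 probe set a gene, in the 2 CESA classes and in 3 lists of other cell wall genes; colour shows whether the arrays of the genotypes overlap and the bar is the median. The 3 secondary-wall CESA genes lie at -1.12 to -1.27, while the 8 xylan genes lie within -0.28 and 0.17 and the 20 lignin genes spread over both directions, up to 2.73.

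Markers of other cells were read beside these values. The summed scaled signal of the 7 dividing-cell markers was 334.4 and 354.0 for the wild type and 380.5 and 386.3 for lc1, and most of it came from PCNA, the sliding clamp of DNA replication, at 229.2 and 247.1 against 340.9 and 296.1 as deposited. After scaling in 2 of the 5 tested the lc1 arrays lay above those of the wild type without overlap, against 16.4% of all tested probe sets. These were PCNA (0.14 ± 0.25) and a probe set of the mitotic cyclin CYCB1;1 near the floor (1.04 ± 0.63). Another gene matched by the name CYCB1;1 lay on the other side of 0, at -0.69, with overlapping genotypes. It was under the floor on 3 arrays and was not tested. The part of this list in the CESA values was not tested. For 3 green blade markers the sums overlapped, from 14975 to 17582 over the 4 arrays. Among them RBCS, the small subunit of Rubisco, gave -0.17 ± 0.14, with its lc1 arrays below its wild-type arrays after scaling but above them as deposited. In neither list did a gene pass limma. Of the 5 names written for dying vessel cells 0 were in the gene table, so the amount of vessel tissue in the samples was not measured here.

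The profile of the secondary-wall genes over the 4 arrays was also set beside those of 2154 other named genes, by the Euclidean distance between log2 values centred on the mean of the 4 arrays. This measure rests on 4 arrays only and says nothing on shared function. CESA4, CESA7 and CESA9 lay 0.28, 0.35 and 0.36 from their own mean profile. The nearest other genes were HIRL1 at 0.10, XBOS36 at 0.23, the metallothionein gene MT2C at 0.28, the WNK-type kinase gene WNK9 at 0.29 and the glutaredoxin gene GRXC7 at 0.31. HIRL1 read 79.2 and 90.4 on the wild-type arrays against 63.1 and 32.9 on those of lc1, with a difference of -1.17 ± 0.34 (limma adjusted p = 0.412). The other 4 gave differences from -0.93 to -1.25 without overlap and without passing limma, and the probe sets of XBOS36 and MT2C are of a type that can bind related transcripts. In all, 8 of the 2639 probe sets compared lay as near as the farthest of the 3 CESA genes.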

How the data were processed

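Biotin-labelled copy RNA from 4 flag leaf collar samples (2 wild type, 2 lc1) was hybridised to Affymetrix Rice Genome arrays. The deposited intensity is the MAS 5.0 signal, computed by the authors with the Affymetrix Microarray Suite 5.0 per the series' design text; R 1.8.0 is listed in the submitters' processing notes. Detection calls and probe-level data were not used here.

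From these signals, 18 values of 0 were set to 0.05 and log2 was taken. Each array's median over the 57258 probe sets without the AFFX prefix was subtracted. Probe sets at or above the 40th percentile of mean log2 signal (34355) were tested for genotype with limma 3.58.1 in R 4.3.3. The settings were lmFit, eBayes with an intensity trend, 2 residual degrees of freedom, 2-sided, Benjamini-Hochberg over all tested, threshold 0.05. That percentile, a scaled signal of 5.96, is below the floor of every array, so the shares of all tested include readings under the floor. Intervals use limma's total degrees of freedom, which add to the 2 residual ones those borrowed from all tested probe sets. They are not adjusted for the number of tests. The code of the fit was checked on simulated arrays with the same noise for all probe sets, which says nothing of the calls here. P-values measure the spread between arrays; identical signals made up at most 1.64% in any pair of arrays.

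Names came from the platform annotation and the gene table of assembly ASM3414082v1, in which all 9 CESA genes were found. No coordinates or sequences are given. List genes were matched by symbol or synonym, with 3 ambiguous names left out, and are represented by their probe set with the highest mean signal. Named are all CESA probe sets and, of each list of wall genes, genes past the threshold plus up to 3 in each direction with the largest difference among those whose genotypes do not overlap and whose brighter group is above the floor, then the 5 genes with the nearest profile; marker genes were named by the same rule. Members and lists were chosen with earlier results of these data known. Alternatives were other scalings, filters, an offset of 16, no trend, the replicate number as a block, and each array left out.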

Additional observations from a re-analysis of the deposited data

How the results depend on the processing

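The median of CESA4, CESA7 and CESA9 stayed below 0 in the 7 alternatives that moved it (from -1.51 to -0.88), as did the mean of these 3 minus that of the other CESA genes in the 9 that moved it (from -1.42 to -0.78). The remaining settings gave the main value again and say nothing about stability. Nor do the fits without 1 array, which had to stay below 0 because both lc1 arrays lay below both wild-type arrays. The stricter filter removed CESA2 and so gave the same class difference as leaving CESA2 out. The median of the other CESA genes, 0.04, was 0.32 on the signals as deposited, where the median tested probe set lay at 0.22, and 0.19 with log2(signal + 16). It was -0.11 with all probe sets of a gene averaged, and from -0.076 to 0.13 without 1 array. Leaving out CESA2 was chosen after seeing the data and gave 0.07 for that median and -1.31 for the class difference.

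Of all probe sets 9 passed limma (8 higher, 1 lower), against 1 as deposited, 4 with quantile normalization, 2 without a filter, 32 with the stricter filter, 0 without the intensity trend (2483 at an unadjusted p under 0.05) and 5 to 1061 without 1 array. A CESA probe set, CESA9, passed only without lc1 mutant 1. That fit has a single lc1 array, and more of all probe sets passed in it than in the main fit. In the other settings 0 CESA probe sets passed. The brighter CESA3 probe set turned to -0.067 with quantile normalization and ranged from -0.15 to 0.16 without 1 array, and CESA6 ranged from -0.18 to 0.43. The lignin median of 0.23 ranged from -0.044 to 0.54 without 1 array and was 0.50 as deposited, and CESA5 ranged from 0.36 to 0.86 without 1 array; the cause was not tested.

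The replicate numbers in the titles say nothing of a shared origin, and the differences between replicates 1 and 2 correlated at -0.04 between the genotypes across probe sets. With the number as a replicate block, which leaves 1 residual degree of freedom, 634 probe sets passed and 0 of the CESA probe sets, with the differences unchanged at -1.25, 0.04 and -1.10. Fits without 1 array also leave 1 residual degree of freedom, and a lone array is assumed to vary like the other genotype's. The signals of CESA2 and of the second CESA1 probe set near the floor limit what can be said of them.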
